A study of Homo sapiens with 3 samples.

Results

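Cholesterol and fatty acid synthesis was followed here through 32 genes of AB12 cells, out of 13936 genes in the deposited table. AB12 is a line of mouse malignant mesothelioma cells. The genes were taken by symbol from a list of sterol and fatty acid genes driven by SREBP (sterol regulatory element binding protein); the rule itself uses no measured value. All 32 were found in the table, each on 1 row, and all 32 passed the filter on low values. They comprise 18 enzymes of the sterol arm (7 of the mevalonate segment and 11 from squalene synthesis to cholesterol), 10 genes of the fatty acid arm and 4 regulators.

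The series compared AB12 cells labelled shNF2 with AB12 cells labelled shSC. NF2 encodes the tumour suppressor merlin, which sits under the plasma membrane; shSC was taken as the control hairpin. The shSC group is 1 library and the shNF2 group 2 libraries, numbered 20 and 21 in the labels, all from cells grown in RPMI medium with serum. The labels do not say whether 20 and 21 are separate hairpins, clones or cultures, so the spread behind the p-values may be purely technical. The labels give the organism as human, but the identifiers are mouse Ensembl genes and the named build is mm10, so the values were read as mouse.

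Sterols and fatty acids are both built from cytosolic acetyl-CoA. The mevalonate pathway joins it into isoprenoid units, which are condensed to squalene, closed to lanosterol and trimmed to cholesterol; fatty acid synthase extends it to palmitate, which elongases and desaturases then modify. SREBP transcription factors are held in the endoplasmic reticulum by INSIG proteins while sterol is plentiful and are released to the nucleus when it runs low. SREBP2, from Srebf2, is known mainly for sterol genes and SREBP1, from Srebf1, mainly for fatty acid genes.

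Reads in genes ranged from 25837151 to 29532600 per library. Nf2 itself had 1539 scaled counts in shSC against 486 in library 20 and 458 in library 21, so the targeted transcript was lower in both shNF2 libraries. Of 12 fixed mesothelial markers 5 were measured, with Msln, Krt8, Krt18, Krt19 and Krt7 at 7397, 7683, 23657, 5113 and 49.7 scaled counts in shSC. In library 20 and library 21, Krt7 rose to 290 and 183 (limma adjusted p = 0.0119), while Krt19 had 3016 and 2618 (limma adjusted p = 0.0996); Msln, Krt8 and Krt18 did not pass either. The other 7, among them Wt1 and Calb2, had no row under their symbols in the deposited table. Of the lists of adipocyte and hepatocyte markers (9 and 7 genes) 0 genes had values to analyse here. Of 9 macrophage marker symbols, among which Adgre1 and Emr1 name the same gene, 3 were measured. Their summed levels were 6085, 5982 and 6410 scaled counts in shSC, library 20 and library 21, nearly all from Mrc1. The macrophage gene Lyz2 was highest in library 20, with 56.5, 260 and 108 scaled counts (limma adjusted p = 0.191). Ptprc and Csf1r had no row under their symbols. The part of macrophages in the results was not tested. Of 8 fibroblast markers 2 were measured, with sums of 13.6, 20.9 and 21.4.

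The sterol arm and the fatty acid arm differed in which shNF2 library was high. In library 20, 16 of 18 sterol arm genes lay above shSC, where 50.7% of all genes tested did. In library 21, 8 of the 18 did, against 49.5% of all genes. In the fatty acid arm it was library 21 that was more often above shSC: 9 of 10 genes in library 21 and 6 of 10 in library 20. No single gene of the 32 passed the test of shNF2 against shSC, so the values that follow describe 3 libraries. In RNA from whole cultures, fewer cells that express a gene and less of its RNA per cell cannot be told apart.

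**Figure D1:**
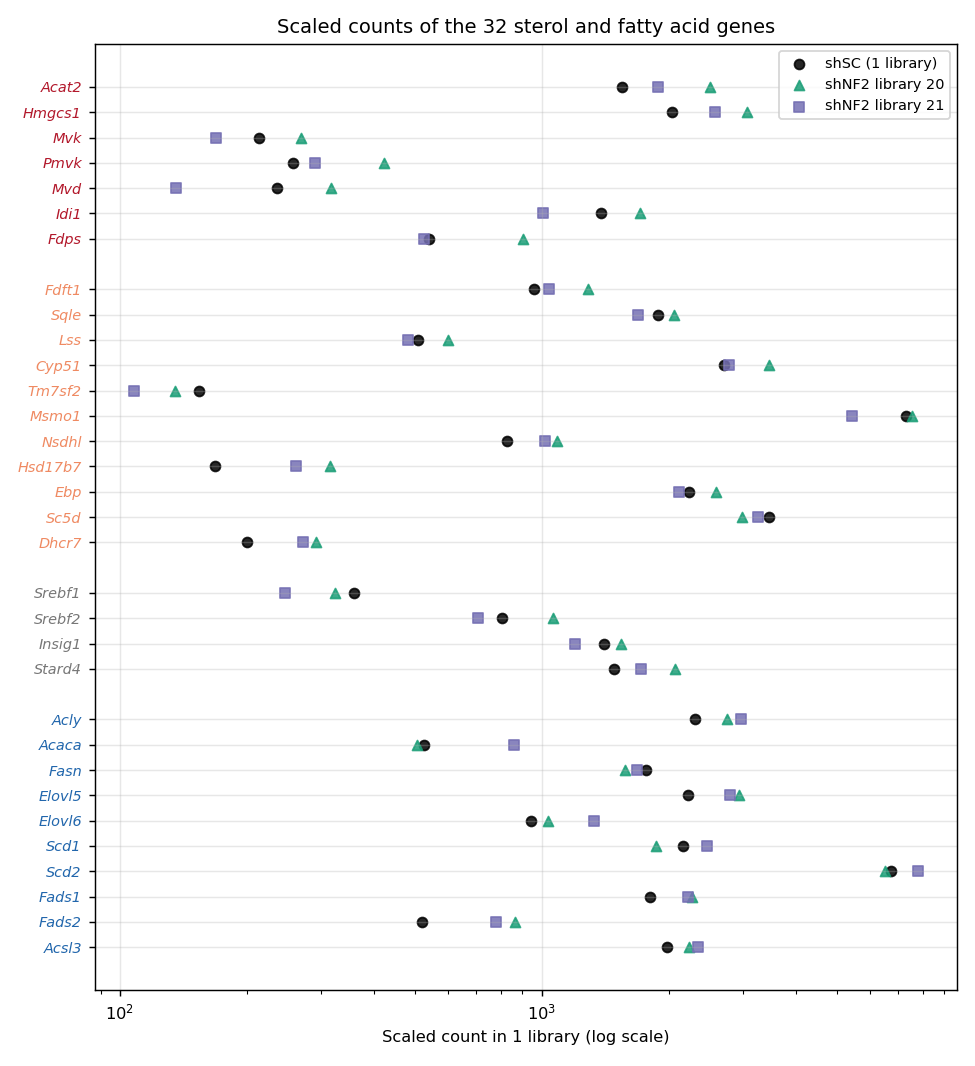
Scaled counts (horizontal log axis) of the 32 genes in shSC (black circles), shNF2 library 20 (green triangles) and shNF2 library 21 (purple squares), 1 point per library. Gene names are red for mevalonate, orange for squalene to cholesterol, grey for regulators and blue for the fatty acid arm. In all 7 mevalonate genes library 20 is the highest of the 3 libraries.

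A scaled count is the number of reads of a gene divided by 1 size factor per library. The test was limma, with a trend of the variance, on log2(scaled count + 1) over the 12813 genes whose mean was 10 or more. Its p-values were adjusted over all of them (Benjamini-Hochberg), a gene passed at an adjusted p under 0.05, and fold changes are given on that log2 scale. Of the 32 genes 0 passed, where 0.843% of all genes tested did (108 genes: 53 higher in shNF2, 0.414%, and 55 lower, 0.429%; edgeR called 29 higher and 52 lower, 0.632%, and DESeq2 98 in all, 0.765%). At an unadjusted p under 0.05 there were 2 of the 32, where 9.27% of all genes were. edgeR and DESeq2 also called 0 of the 32, with 2 (9.12% of all genes) and 1 (5.56%) at an unadjusted p under 0.05. Standard errors of the 32 log2 fold changes ran from 0.21 to 0.42, and no log2 fold change was larger in size than 0.76. An exact test of 2 libraries against 1 cannot give a p below 0.333.

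Beginning with the mevalonate segment, Acat2 encodes the cytosolic thiolase that joins 2 acetyl-CoA units. It had 1549 scaled counts in shSC against 2508 in library 20 and 1883 in library 21. Both shNF2 libraries were above shSC, library 20 the more so, and the change was 0.49 ± 0.23 on the log2 scale (SE; limma adjusted p = 0.564; 95% interval -0.02 to 0.99). Acat2 lies tail to tail with Tcp1, an abundant chaperonin gene (32764 scaled counts in shSC), and no source used here says whether the counting used strand, so their reads may not be fully told apart. Hmgcs1 encodes the cytosolic synthase that makes HMG-CoA. Its levels were 2031 scaled counts in shSC against 3070 in library 20 and 2568 in library 21. As for Acat2, the groups did not overlap, with 0.47 ± 0.22 on the log2 scale (SE; limma adjusted p = 0.542; 95% interval -0.0032 to 0.94).

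The kinases and the decarboxylase that follow were split around shSC in library 21. Mvk, mevalonate kinase, had 214 scaled counts in shSC against 269 in library 20 and 169 in library 21, so that shSC lay between both shNF2 libraries. Pmvk, phosphomevalonate kinase, had 257, 423 and 291, with both shNF2 libraries above shSC. Mvd, which decarboxylates mevalonate diphosphate to isopentenyl diphosphate, had 236, 317 and 136. This was the widest gap between both shNF2 libraries among the 32 genes: library 21 had 0.429 times the scaled count of library 20, with an exact 95% interval of 0.349 to 0.526. That interval, like all intervals of library ratios here, covers the counting of reads only and not the spread between cultures. The log2 fold changes of Mvd were 0.43 in library 20 and -0.79 in library 21.

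Idi1, the isomerase that makes the starter unit dimethylallyl diphosphate, had 1384 scaled counts in shSC against 1707 in library 20 and 1009 in library 21. Fdps, which condenses these units to farnesyl diphosphate, had 541, 905 and 525. Both genes thus showed library 20 above shSC and library 21 below it, Fdps by little. In Idi1 the ratio of library 21 to library 20 was 0.591 (0.546 to 0.639) and in Fdps it was 0.58 (0.52 to 0.647). Summed over the 7 mevalonate genes, the scaled counts were 6212 in shSC, 9199 in library 20 and 6580 in library 21. The median of their log2 fold changes stood at 0.60 in library 20 but at -0.04 in library 21. All 7 were lower in library 21 than in library 20, as were 49.2% of all genes tested.

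**Figure D2:**
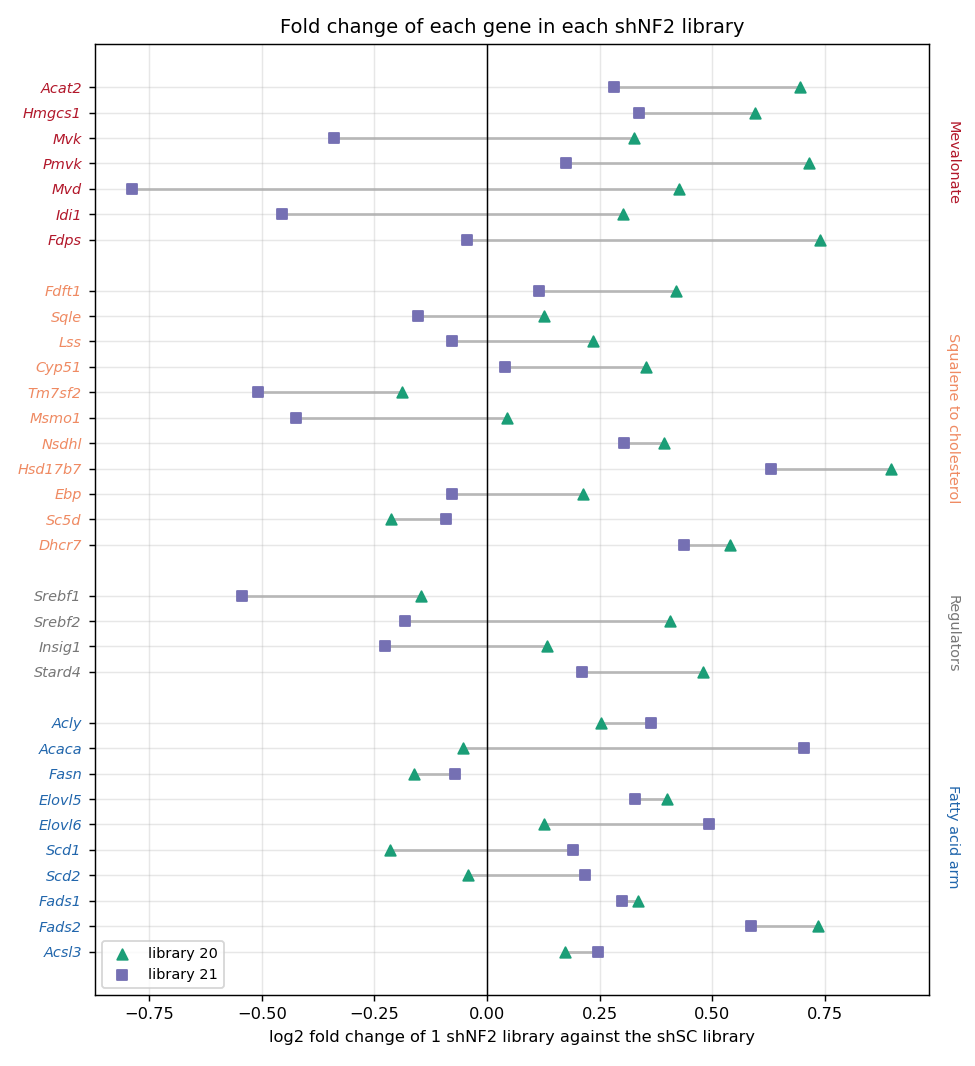
Log2 fold change (horizontal axis) of each of the 32 genes in library 20 (green triangles) and library 21 (purple squares) against the same shSC library, joined by a grey line; gene names are coloured by group as labelled on the right. Library 21 lies to the left of library 20 in 17 of 18 sterol arm genes and in 4 of 4 regulators, and to the right in 7 of 10 fatty acid genes.

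From farnesyl diphosphate onward the median gap between both shNF2 libraries was smaller, at -0.29 on the log2 scale against -0.67 in the mevalonate segment. Fdft1, squalene synthase, had 961 scaled counts in shSC against 1287 in library 20 and 1041 in library 21. Sqle, squalene epoxidase, a rate-limiting step of the later pathway, had 1885, 2058 and 1694. Lss, which closes the rings to give lanosterol, had 510, 600 and 483. In Sqle and Lss shSC lay between both shNF2 libraries, and the log2 fold change of Sqle was -0.01 ± 0.22 (SE; limma adjusted p = 0.992; 95% interval -0.50 to 0.47).

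Lanosterol is then stripped of its extra methyl groups. Cyp51, the lanosterol demethylase, had 2706 scaled counts in shSC against 3458 in library 20 and 2781 in library 21. Msmo1, the methylsterol monooxygenase, had 7310, 7535 and 5444, so that library 21 stood below both others. The ratio of library 21 to library 20 for Msmo1 was 0.723 (0.698 to 0.748). Tm7sf2, a sterol reductase of this stretch, had 154, 135 and 108, with both shNF2 libraries below shSC. Nsdhl, the sterol dehydrogenase of the demethylation steps, had 826, 1085 and 1020, with both above.

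Hsd17b7, the reductase that completes the demethylation steps, showed the largest fold change of the 32 genes. Its level was 168 scaled counts in shSC against 315 in library 20 and 261 in library 21. Both shNF2 libraries were above shSC without overlap, with 0.76 ± 0.30 on the log2 scale (SE; limma adjusted p = 0.401; unadjusted p = 0.0225; 95% interval 0.13 to 1.40). Its neighbours in the pathway did not share that size. Ebp, which shifts a ring double bond, had 2230, 2584 and 2114 scaled counts in shSC, library 20 and library 21. Sc5d, the desaturase after it, had 3465, 2990 and 3251. Sc5d was the single sterol arm gene that was higher in library 21 than in library 20, and both shNF2 libraries were below shSC. Dhcr7, which reduces the last double bond of one branch to give cholesterol, had 201, 292 and 272, both above shSC.

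Over these 11 genes the median of the log2 fold changes stood at 0.23 in library 20 but at -0.08 in library 21, and 10 of 11 were lower in library 21 than in library 20. Over the whole sterol arm the medians were 0.37 and -0.06, beside 0.01 and 0.00 for all genes tested. In both libraries together the median was 0.14, so its direction depends on which library is used. The groups did not overlap in 10 of the 18 genes: 8 had both shNF2 libraries above shSC (36.1% of all genes tested did) and 2 had both below (35.8%). In 17 of 18 the value was lower in library 21 than in library 20, as in 49.2% of all genes. In 14 of these the reads-only interval of the ratio lay under 1, where it did in 26.6% of all genes. This comparison was not matched for read number, on which the width of the interval depends. Sterol arm genes at least 1.5-fold above shSC numbered 5 in library 20 (6.82% of all genes tested) and 1 in library 21 (8.23%), and those at least 1.5-fold below shSC numbered 0 in library 20 (7.69%) and 1, Mvd, in library 21 (10.8%). With 1 library on each side, the difference between libraries 20 and 21 has no replicate check and no test.

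**Figure D3:**
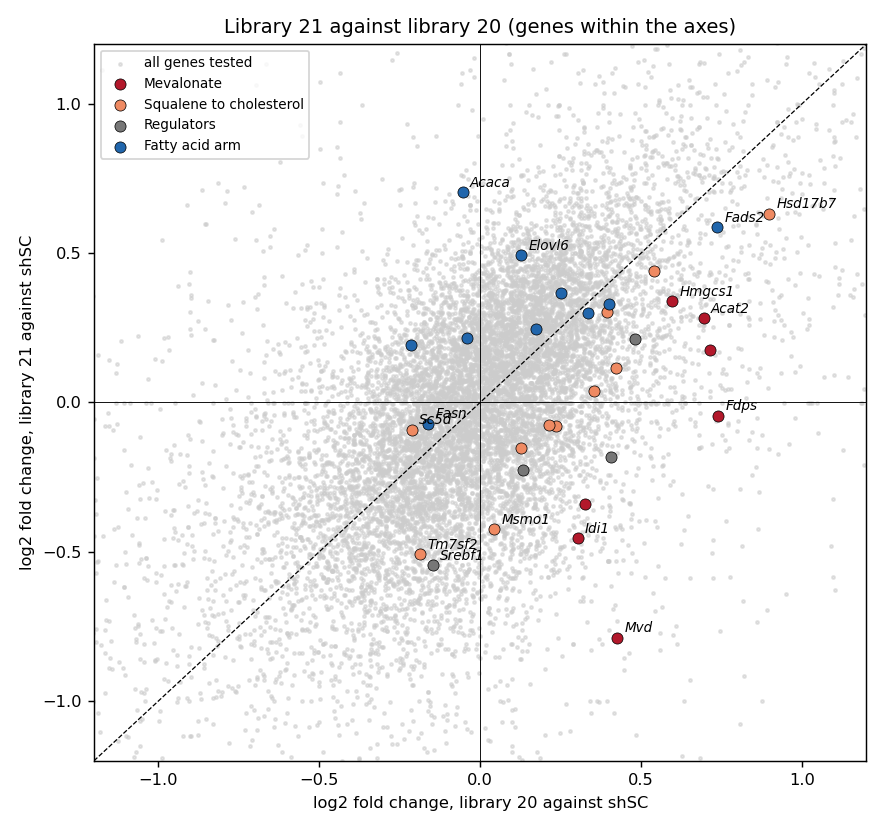
Log2 fold change against shSC in library 21 (vertical axis) and library 20 (horizontal axis) for all genes tested (grey; those beyond the axes are not drawn) and the 32 genes (coloured by group); the dashed line marks equal values, and both axes share the shSC library. The mevalonate genes all lie under the dashed line, Mvd farthest from it, whereas Acaca and Elovl6 lie above it.

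The regulators followed the sterol arm in their order between libraries. Srebf2 had 803 scaled counts in shSC against 1066 in library 20 and 708 in library 21, on both sides of shSC. Srebf1 had 359, 324 and 246, with both shNF2 libraries below shSC and a difference of -0.35 ± 0.29 on the log2 scale (SE; limma adjusted p = 0.769; 95% interval -0.97 to 0.28). Insig1, which retains SREBP and is itself an SREBP target, had 1406, 1543 and 1201. Stard4, a sterol transfer protein, had 1487, 2074 and 1722, the one regulator with both shNF2 libraries above shSC. All 4 were lower in library 21 than in library 20 (49.2% of all genes tested), each with a reads-only interval under 1 (26.6%). For Srebf2 the ratio was 0.664 (0.603 to 0.731) and for Insig1 0.779 (0.721 to 0.84).

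In the fatty acid arm, synthesis begins with Acly, the citrate lyase that releases cytosolic acetyl-CoA. It had 2307 scaled counts in shSC against 2748 in library 20 and 2971 in library 21, both above shSC. Acaca, the carboxylase that makes malonyl-CoA and commits it to fatty acids, had 527, 507 and 858. Library 21 alone stood above shSC, and its ratio to library 20 was 1.69 (1.51 to 1.89), the widest gap in that direction among the 32 genes. Fasn, fatty acid synthase, had 1766, 1580 and 1682, with both shNF2 libraries below shSC and a difference of -0.12 ± 0.21 on the log2 scale (SE; limma adjusted p = 0.908; 95% interval -0.58 to 0.35).

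Elongation and activation genes were above shSC in both libraries. Elovl6, which extends palmitate, had 945 scaled counts in shSC against 1032 in library 20 and 1331 in library 21. Elovl5, which extends polyunsaturated acids, had 2221, 2930 and 2792. Acsl3, an acyl-CoA synthetase of the endoplasmic reticulum and lipid droplets, had 1982, 2234 and 2351.

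Desaturases of saturated and of polyunsaturated fatty acids differed in their pattern. Scd1 and Scd2 are stearoyl-CoA desaturases that make monounsaturated acids. Scd1 had 2162 scaled counts in shSC against 1861 in library 20 and 2467 in library 21, and Scd2 had 6716, 6526 and 7807. In both, shSC lay between the shNF2 libraries, with library 21 the highest. They are close paralogs, and the counting could split or drop reads that match both, so each value is uncertain to that extent. Fads2 and Fads1 introduce the further double bonds of polyunsaturated acids, Fads2 acting first. Fads2 had 519, 865 and 780 scaled counts, and Fads1 had 1804, 2276 and 2220. Both genes were higher in both shNF2 libraries than in shSC. For Fads2 the log2 fold change was 0.66 ± 0.24 (SE; limma adjusted p = 0.357; unadjusted p = 0.0161; 95% interval 0.15 to 1.18), the smallest p of the 32 genes, and for Fads1 it was 0.32 ± 0.21 (SE; limma adjusted p = 0.703).

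The fatty acid arm had a median log2 fold change of 0.15 in library 20, 0.31 in library 21 and 0.31 in both together. The groups did not overlap in 7 of 10 genes, 6 with both shNF2 libraries above shSC (Acly, Elovl5, Elovl6, Fads1, Fads2 and Acsl3; 36.1% of all genes tested) and 1 with both below (Fasn; 35.8%). The scaled counts of the arm summed to 20949.5 in shSC, 22560.5 in library 20 and 25258.5 in library 21. For the sterol arm the same sums were 26628, 31537 and 25050.5. Msmo1 alone held 7310, 7535 and 5444 of these, the most of any gene in the arm. Per 1000000 reads in genes the sterol arm had 926, 1167 and 961, so whether its sum in library 21 lay above or below shSC turned with the scaling. Thus the sterol arm was highest in library 20 and the fatty acid arm in library 21. In 7 of 10 fatty acid genes library 21 was above library 20 (50.8% of all genes tested), in 5 of them with a reads-only interval over 1 (27.7%): Acly, Acaca, Elovl6, Scd1 and Scd2. The share of 27.7% was likewise not matched for read number. Fads2 was the 1 gene of the arm with an interval under 1, at a ratio of 0.901 (0.817 to 0.994).

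Library 21 differed from shSC in relation to base composition, which touches these comparisons. Across 10318 genes with human stand-in transcripts, GC content and log2 fold change had a Spearman's rho of -0.373 in library 21, beside -0.038 in library 20. For the length of the stand-ins rho was 0.208 in library 21 and 0.036 in library 20. Genes are not independent replicates and share these libraries, so the values are a description. The stand-ins of the 7 mevalonate genes held 54.4% GC at the median, those of the 11 later sterol genes 48.9% and those of the fatty acid arm 49.0% (9 of 10 genes), beside 49.8% for all genes. Stand-ins of Mvd and Fasn had 65.2% each, and those of Hmgcs1 and Idi1 40.2% and 41.1%.

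**Figure D4:**
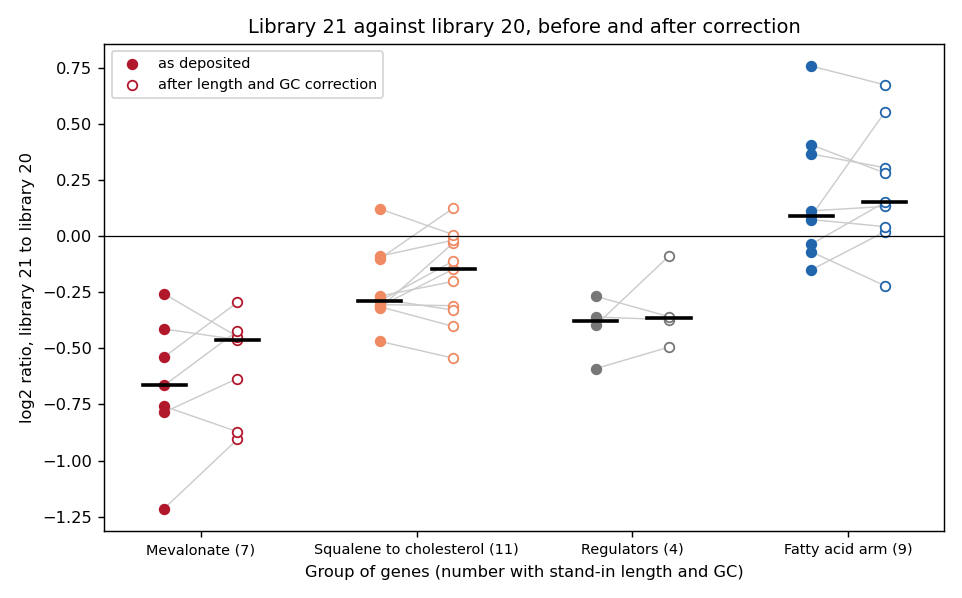
Log2 ratio of library 21 to library 20 (vertical axis) for the 31 genes with a stand-in, by group, as deposited (filled) and after correction for length and GC (open); grey lines join a gene and black bars are medians. All 7 mevalonate genes and all 4 regulators stay below 0, and the fatty acid medians are 0.09 and 0.15.

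After each library's trend with stand-in length and GC was removed, 16 of 18 sterol arm genes were still above shSC in library 20. Of the 10318 genes with stand-ins, 5552 were. In 16 of 18 the value was lower in library 21 than in library 20, as in 4895 of the 10318. All 7 mevalonate genes were again lower in library 21, with a median difference of -0.46 (-0.67 as deposited). For the 11 later sterol genes it was -0.15 (-0.29 as deposited), with 9 of 11 lower in library 21 (10 of 11 as deposited). In library 21 the sterol arm then had 10 of 18 genes above shSC and a median of 0.08. All genes with stand-ins had 5741 of 10318 above shSC and a median of 0.05. Mvd had 0.53 in library 20 and -0.38 in library 21 after correction, and Idi1, with a low GC, had 0.27 and -0.60. In the fatty acid arm 8 of 9 genes were higher in library 21 than in library 20 (6 of the 9 as deposited), as were 5423 of the 10318. Fads1 and Fads2, with stand-ins of 583 and 799 bases, were the genes that changed order. Fads2 then had 0.74 in library 20 and 0.76 in library 21. Fasn moved most, to 0.08 in library 20 and 0.63 in library 21. It thus no longer lay below shSC once the trends with length and GC were removed together. Its stand-in length, a median over human transcripts, was 363.5 bases, beside 1800 over all genes with stand-ins, so its corrected values are uncertain. The share of that length in the move was not tested. Corrected values of other genes with short stand-ins are uncertain too, among them Fads1, Fads2, Hsd17b7 (507 bases), Acsl3 (650) and Ebp (714). None of the 31 genes passed the limma test after correction; the smallest adjusted p was that of Fads2 at 0.108.

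Other genes around these pathways were taken from fixed lists, and 0 members of any of the 8 lists passed the limma test in either direction. Of 18 tested genes for SREBP processing and protein degradation at the endoplasmic reticulum, 10 were above shSC in library 20 and 9 in library 21, with medians of 0.01 and -0.04. Vcp, the ATPase that extracts proteins from the endoplasmic reticulum membrane, had a log2 fold change of 0.47, and Mbtps2, the protease that makes the second cut of SREBP, 0.29. The 14 genes that use farnesyl and geranylgeranyl diphosphate had medians of -0.04 and 0.01. Fnta, a subunit of protein farnesyltransferase, had a log2 fold change of -0.36, and Zmpste24, which trims farnesylated prelamin A, 0.35.

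Next came sterol transport and export genes. Of 19 uptake and transport genes 9 were above shSC in library 20 and 9 in library 21, and 3 had an unadjusted p under 0.05 (9.27% of all genes tested). Gramd1b, which moves sterol from the plasma membrane to the endoplasmic reticulum, had 305 scaled counts in shSC against 94.1 in library 20 and 138 in library 21. Its log2 fold change was -1.41 ± 0.34 (SE; limma adjusted p = 0.0936), and its paralog Gramd1a, with 858, 513 and 486, had -0.78 ± 0.24 (SE; limma adjusted p = 0.239). Both shNF2 libraries lay below shSC in both genes. Of 11 tested genes for LXR (the oxysterol receptors), efflux and esterification, 3 were above shSC in library 21 and 5 in library 20. Over all genes tested 49.5% and 50.7% were. The medians of the list were -0.55 in library 21 and -0.06 in library 20. Its stand-ins held 58.9% GC at the median. After length and GC correction the medians were -0.07 and 0.01, with 5 of 11 above shSC in library 21. Its summed scaled counts were 6400 in shSC, 5999 in library 20 and 6507 in library 21. Soat2, a sterol esterifying enzyme, had 223, 144 and 128, and Nr1h2, which encodes an LXR, had 431, 325 and 239.

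**Figure D5:**
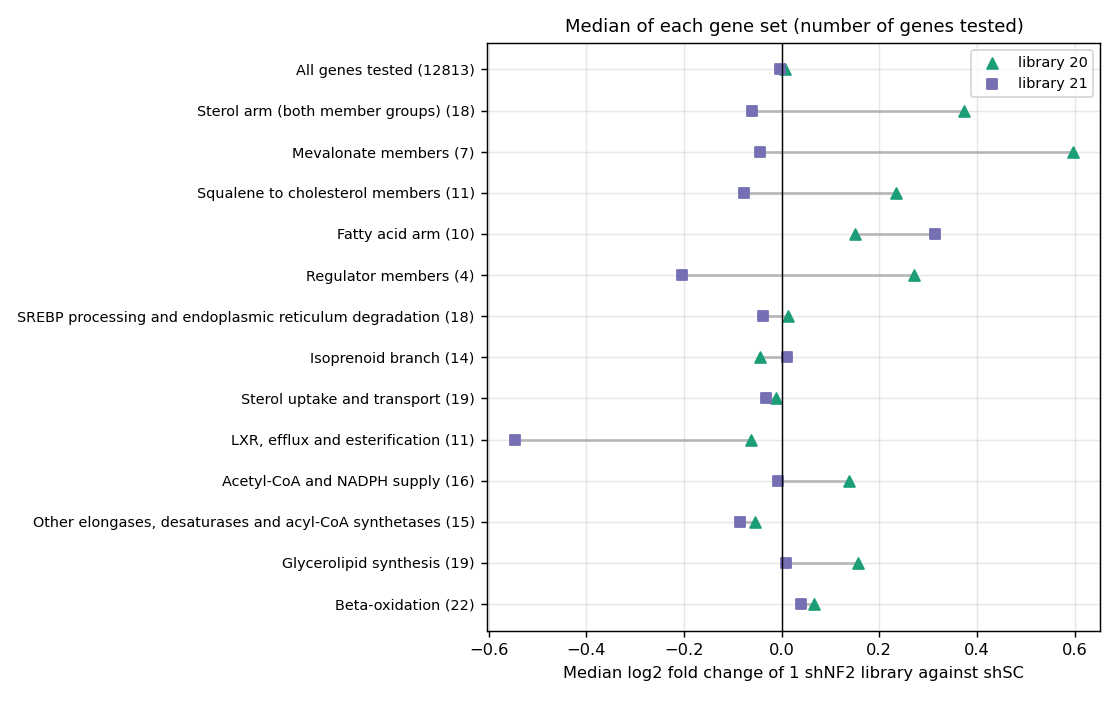
Median log2 fold change against shSC (horizontal axis) of library 20 (green triangles) and library 21 (purple squares) for all genes tested, the gene groups described here and 8 lists of other pathway genes; the number of genes tested is in brackets. The mevalonate group has the highest median in library 20 (0.60) and the fatty acid arm the highest in library 21 (0.31).

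The remaining lists supply or use fatty acids. The 16 tested genes of acetyl-CoA and NADPH supply had medians of 0.14 (library 20) and -0.01 (library 21), with Idh1, a cytosolic source of NADPH, at 0.35 and Mlycd, which breaks down malonyl-CoA, at -0.39. Other elongases, desaturases and acyl-CoA synthetases (15 tested) had medians of -0.05 and -0.08, with Acsl1 at 0.50 and the fatty acid transporter gene Slc27a1 at -0.45. Glycerolipid synthesis genes (19 tested) had 0.16 and 0.01, with Agpat4, an acyltransferase of phosphatidic acid synthesis, at 0.73 (limma adjusted p = 0.356) and the choline kinase gene Chka at 0.47. Beta-oxidation genes (22 tested) had 0.07 and 0.04. In that list Echs1, an enoyl-CoA hydratase, had -0.50, and Pparg, a nuclear receptor of lipid storage, had 55.5 scaled counts in shSC against 14.6 in library 20 and 12.6 in library 21 (limma adjusted p = 0.152). Library 21 was lower than library 20 in 12 of 16 supply, 13 of 19 glycerolipid and 14 of 22 beta-oxidation genes. It was lower in 7 of 15 genes of the other elongases list and 8 of 11 of the LXR list. The counts were 10 of 18 for SREBP processing, 8 of 14 for use of farnesyl diphosphate and 9 of 19 for sterol uptake. Of all genes tested 49.2% were lower in library 21.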

How the data were processed

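RNA of 3 AB12 libraries was polyA-selected and sequenced from stranded libraries, per the labels' protocols. The authors deposited 1 table of gene signal, named as scaled counts: each value is a whole read number divided by 1 factor per library (100% of values whole within 0.001 reads in each library; factors 1.03, 0.956 and 1.03 for shSC, library 20 and library 21). Build mm10 and the tools STAR 2.5.0a, HTSeq 0.5.3, DESeq 1.22.1 and cutadapt 1.6 are listed, with no roles, per the submitters' processing notes. Low genes had been removed (smallest total 15 reads) by a filter not given in the sources used here. The 4 rows that name no gene held 48.6%, 48.7% and 47.7% of reads and were left out.

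The main test was limma 3.58.1 in R 4.3.3 on log2(scaled count + 1), mean of at least 10; the spread rests on 1 pair of shNF2 libraries moderated over genes, and shSC, alone in its group, is taken to vary like them. edgeR 4.0.16 (quasi-likelihood; 81 genes called) and DESeq2 1.42.0 (98 called) served as alternatives on the recovered reads. Intervals of library ratios are exact (conditional binomial). Length and GC came from human GENCODE protein-coding transcripts of the same or an older symbol (80.5% of genes tested; Scd2 had none that fitted) and trends were fitted with mgcv 1.9.3. Scripts were tested on simulated data. Named genes were Nf2, the 32 members and the 2 genes of smallest p in each list of other pathway genes; Tcp1 was added after its values were seen. The members and lists were chosen with earlier results of these data known, and medians are descriptions. Alternatives were other pseudocounts, filters, scalings, variance models and tools, length and GC correction, and each shNF2 library left out. A further list of other sterol synthesis genes is not reported here. No mouse sequence or coordinate is printed.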

Additional observations from a re-analysis of the deposited data

How the results depend on the processing

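With 1 shSC library and 2 shNF2 libraries no alternative removes the chance value of shSC, which every fold change shares. No paired analysis was possible because the shSC group is 1 library. Calls of the 32 genes stayed at 0 under all 11 refitted alternatives, and the smallest adjusted p was 0.108. Over all genes the 108 calls became 232 without the filter, 0 under quantile normalization and 0 without a variance trend; the cause was not tested. Leaving out a shNF2 library leaves no residual spread, so it gives values only. Then the median log2 fold change ran from 0.15 to 0.31 in the fatty acid arm (the lower value without library 21), from -0.06 to 0.37 in the sterol arm (negative without library 20) and from 0.15 to 0.31 over all 32 genes.

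Signs changed for some genes, Fdps (0.35) and Acaca (0.32) with larger values among them. Both changed only when a library was left out, and in both shSC lay between the shNF2 libraries. The cause of sign changes under other settings was not tested. Mvk (-0.01) became 0.044 under quantile normalization, 0.021 with edgeR, 0.030 with DESeq2 and 0.13 after length and GC correction. That correction also turned Mvd (-0.18) to 0.074 and Fasn (-0.12) to 0.35, and DESeq2 turned Scd1 (-0.01) to 0.00061. Leaving out 1 library turned the sign of 13 genes: the values over both choices ran from -0.34 to 0.33 for Mvk, -0.79 to 0.43 for Mvd, -0.46 to 0.30 for Idi1, -0.045 to 0.74 for Fdps, -0.15 to 0.13 for Sqle, -0.079 to 0.23 for Lss, -0.43 to 0.044 for Msmo1, -0.077 to 0.21 for Ebp, -0.054 to 0.70 for Acaca, -0.22 to 0.19 for Scd1, -0.041 to 0.22 for Scd2, -0.18 to 0.41 for Srebf2 and -0.23 to 0.13 for Insig1. Under TMM and quantile normalization 17 of 18 sterol arm genes were again lower in library 21 than in library 20, and 7 of 10 fatty acid genes higher.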
